A study of Mus musculus with 4 samples.

Results

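Cell cycle genes were examined as a set of 44 genes, 19 of S phase and 25 of G2 and M phase, out of the 31053 genes of the count matrices. The members were chosen by symbol from these functions and not by ranking their levels in these libraries, though earlier results of these data were known. Each of the 4 matrices was searched for them, and all 44 genes had UMIs in every library. A cell was called cycle-gene-positive if, after its counts were thinned at random to 1000 UMIs, it held UMIs of at least 3 S genes or of at least 3 G2/M genes. A UMI, or unique molecular identifier, tags 1 captured RNA molecule. Thinning to 1 depth was needed because a deep cell shows more genes than a shallow cell of the same state.

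CD45+ cells, which carry the surface marker of leukocytes, were sorted from the spinal cord of C57BL/6 mice of both sexes at an age of 3 months and sequenced on a 10x Chromium platform per the study's methods (the design text names Drop-Seq). There was 1 library for each of 4 conditions. The standard sham library came from sham-operated mice and ordinary dissociation. The ActD sham library, the 3 dpi library and the 14 dpi library (days after a thoracic contusion) were dissociated with actinomycin D (ActD), which blocks transcription during the procedure (Act-seq). The study's methods give a total of mice over 3 groups (control, 3 dpi and 14 dpi), and the number behind each library is not given in the sources used here. With 1 library per condition no difference could be tested against a spread between animals, so every interval below is a 95% interval for counting error only. The 2 sham libraries differ in protocol, and also in the version of the counting software. The 3 dpi library was counted with the version of the standard sham library. The 14 dpi library was counted with that of the ActD sham library, so 3 dpi differs in version from both. In every comparison of 14 dpi with the standard sham library, day, dissociation and software version differ together and cannot be told apart.

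The filtered libraries held 5035 cells (standard sham), 2135 cells (ActD sham), 8214 cells (3 dpi) and 9078 cells (14 dpi), with a median of 7426 to 9672 UMIs per cell. Pairs of libraries shared 3 to 36 cell barcodes, at most 0.697% of the smaller library. Each library was clustered alone, without the members and other listed cell cycle genes, and clusters were named from marker genes. Genes outside the lists that move with the members stayed in the clustering. "Microglia" here means microglia-like cells, and the same holds for every class name. Clusters in which markers were too few or pointed to another class were left without a name and are described by their leading genes.

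S phase genes act where DNA is copied. Mcm2 to Mcm7 form the replicative helicase, Pcna is the sliding clamp of the polymerases, Rrm1, Rrm2, Tyms and Dut keep up the supply of nucleotides, and Cdc6, Cdt1 and Gins2 prepare and start replication. G2/M genes act where chromosomes condense and separate. Cdk1 with Ccna2, Ccnb1 and Ccnb2 drives entry into mitosis, Top2a untangles DNA, Cenpa, Cenpe and Cenpf belong to centromeres, Plk1, Aurka, Aurkb, Bub1 and Bub1b are mitotic kinases or checkpoint proteins, and Cdc20 and Ube2c help to destroy the cyclins. Microglia are long-lived resident macrophages that renew themselves and divide after injury, whereas mature neutrophils have left the cell cycle for good.

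The promoters of the S and the G2/M genes differ in the short motifs they hold, and 6 of them are shown as examples of this split. The sequences are those of RefSeq on GRCm38.p6 and run from 250 bases before to 50 bases after the start of the gene, 5' to 3' on the strand of the gene. Entries were found for 16 of the 19 S genes and for 22 of the 25 G2/M genes. Capitals mark every match, on either strand, to TTTCCCGC, TTTCGCGC, TTTGCCGC or TTTGGCGC (the E2F-type letters), to TTTGAA (the cell cycle homology region, CHR) and to CCAAT. Matches can overlap, so that a longer run of capitals can hold more than 1 match.
Mcm5 (chr8:75109259-75109558, plus strand): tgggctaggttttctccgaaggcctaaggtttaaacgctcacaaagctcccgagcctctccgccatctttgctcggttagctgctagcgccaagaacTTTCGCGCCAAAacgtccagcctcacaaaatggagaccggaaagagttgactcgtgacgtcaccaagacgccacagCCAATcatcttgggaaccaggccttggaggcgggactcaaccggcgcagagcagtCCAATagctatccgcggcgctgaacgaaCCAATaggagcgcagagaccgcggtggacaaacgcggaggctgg
Mcm6 (chr1:128359656-128359955, minus strand): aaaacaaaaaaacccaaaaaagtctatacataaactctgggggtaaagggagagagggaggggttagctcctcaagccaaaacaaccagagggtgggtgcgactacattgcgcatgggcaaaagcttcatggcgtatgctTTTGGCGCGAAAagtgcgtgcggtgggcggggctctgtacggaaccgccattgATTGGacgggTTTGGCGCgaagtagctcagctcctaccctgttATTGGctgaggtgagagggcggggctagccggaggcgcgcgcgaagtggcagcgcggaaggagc
Pclaf (chr9:65890073-65890372, plus strand): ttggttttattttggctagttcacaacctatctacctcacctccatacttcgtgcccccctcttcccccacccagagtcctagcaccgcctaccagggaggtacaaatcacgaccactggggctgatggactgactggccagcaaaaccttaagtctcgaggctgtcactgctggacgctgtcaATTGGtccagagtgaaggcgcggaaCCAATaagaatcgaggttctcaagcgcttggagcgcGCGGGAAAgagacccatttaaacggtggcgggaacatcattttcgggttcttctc
Top2a (chr11:99024140-99024439, minus strand): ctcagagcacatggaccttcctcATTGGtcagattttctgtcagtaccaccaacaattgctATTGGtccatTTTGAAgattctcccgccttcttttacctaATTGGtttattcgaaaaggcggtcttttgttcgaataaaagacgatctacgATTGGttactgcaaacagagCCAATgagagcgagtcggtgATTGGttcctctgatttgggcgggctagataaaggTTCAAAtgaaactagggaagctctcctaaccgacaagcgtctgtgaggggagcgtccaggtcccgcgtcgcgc
Ube2c (chr2:164769679-164769978, plus strand): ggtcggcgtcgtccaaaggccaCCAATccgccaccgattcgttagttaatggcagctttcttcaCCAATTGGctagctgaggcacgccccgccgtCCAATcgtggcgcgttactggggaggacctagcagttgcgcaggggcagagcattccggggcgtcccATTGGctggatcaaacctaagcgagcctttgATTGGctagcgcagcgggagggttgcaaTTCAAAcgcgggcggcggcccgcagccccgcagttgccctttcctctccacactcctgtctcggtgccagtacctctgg
Cdc20 (chr4:118437294-118437593, minus strand): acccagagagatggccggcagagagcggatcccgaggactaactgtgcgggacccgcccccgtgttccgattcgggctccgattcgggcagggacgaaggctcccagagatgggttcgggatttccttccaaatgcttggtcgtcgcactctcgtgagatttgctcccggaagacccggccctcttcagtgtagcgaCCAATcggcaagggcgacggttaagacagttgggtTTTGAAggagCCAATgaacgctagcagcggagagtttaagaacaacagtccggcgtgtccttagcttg
The first 3 are S genes with E2F-type letters, and the last 3 are G2/M genes with a CHR. E2F-type letters were found in 7 of 16 S promoters (43.8%) and in 1 of 22 G2/M promoters (4.55%), beside 2.32% of all 27025 promoters. A CHR was found in 16 of 22 G2/M promoters (72.7%) and in 1 of 16 S promoters (6.25%), beside 18.1% of all promoters. CCAAT was found in 86.4% of the G2/M promoters, 68.8% of the S promoters and 37.9% of all promoters. A CHR together with CCAAT was found in 72.7%, 6.25% and 7.12%. These matches describe letters and do not show that a factor binds there.

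Before classes were compared, each member was checked against the others. Cells were called without the gene in question, and the share of cells with a UMI of that gene was compared between called and other cells, all at 1000 UMIs. Mki67, a marker of dividing cells, had a UMI in 62.3% of 1194 called cells and in 2.32% of the others. Top2a had one in 59.2% and 2.07%, and Pclaf, a partner of Pcna, in 44.7% and 2.40%. Some S genes were common in the other cells too. Slbp, which binds histone mRNA, was found in 201 of 804 called cells and in 5.10% of the others, and Pcna in 20.8% and 3.46%. Pooled over all classes and libraries, the 44 members were all found more often in called cells. Within microglia many S genes and a few G2/M genes went the other way in some libraries. At 3 dpi Uhrf1 was found in 1.85% of 54 called cells and 2.91% of the others, and Ung in 0 of 61 and 1.24%. At 14 dpi Pcna was found in 0 of 14 called microglia and 3.17% of the others, and Slbp in 0 of 12 and 3.91%, and in the standard sham library Slbp was found in 0 of 8 and 5.37%. Most S genes at 14 dpi, and many in the standard sham library, had no UMI in the called microglia. Among G2/M genes at 14 dpi, Aurkb was found in 0 of 29 called microglia and 0.232% of the others. Called cells were few (9 to 15 for S genes at 14 dpi), so these S calls had little check by the other members. These cells share the libraries and the other members, so the shares are a description.

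Cycle-gene-positive cells made up 9.52% of the standard sham library (479 cells), 4.47% of the ActD sham library (95 cells), 5.48% of the 3 dpi library (450 cells) and 7.93% of the 14 dpi library (719 cells). Without thinning these shares were 23.6%, 29.2%, 42.0% and 28.4%, so the order of the libraries depended on depth. The classes behind the positive cells differed more than the shares. At 3 dpi, microglia were 8.62% of the cells and held 47.6% of the positive cells. This split depended on the clustering. With genes that move with the members also left out, a setting added after seeing the data, microglia held 130 of the 450 and injury macrophages 153. In the clustering used here they held 214 and 72. At 14 dpi, microglia were 47.8% of the cells and held 5.56% of the positive cells, whereas immature neutrophils held 22.4%, monocytes 19.7%, an unnamed cluster led by Myl4 16.0% and myeloid progenitors 12.4%. In the standard sham library, an unnamed cluster that was also led by Myl4 held 28.6% of the positive cells, monocytes 22.5% and myeloid progenitors 19.4%. In the ActD sham library, microglia held 41.1% and an unnamed cluster led by C1galt1c1 and Nrg1 held 34.7%.

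**Figure D1:**
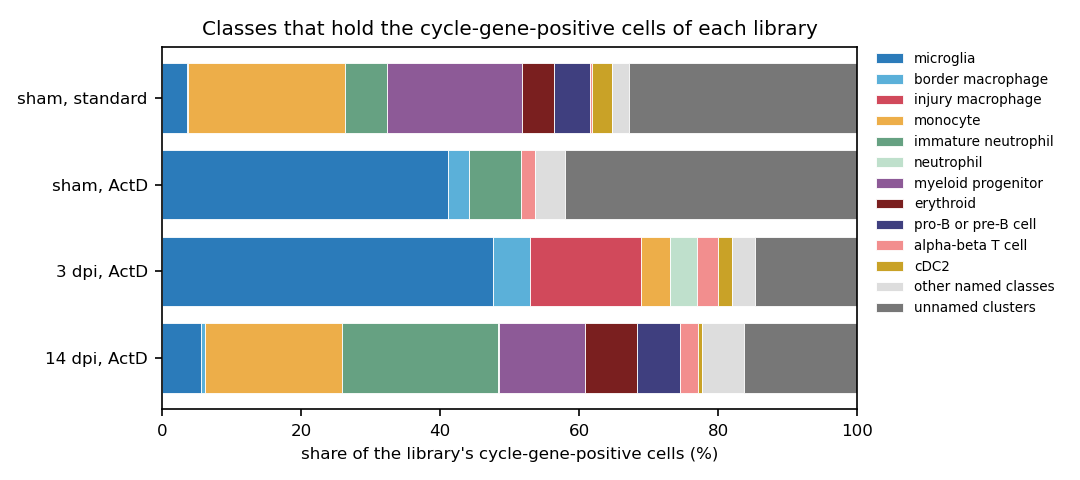
Share of the cycle-gene-positive cells of each library (x axis, percent) that falls in each cell class (colours), with 1 bar per library. Microglia hold 47.6% of the positive cells at 3 dpi and 5.56% at 14 dpi, where immature neutrophils, monocytes and progenitors take most of the bar. The 3 dpi value depends on the clustering, and was 130 of 450 positive cells with genes that move with the members left out.

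Mature neutrophils give a background for these shares, at their own level of these genes. Where no cell was positive, the largest share allowed is given as 3 cells of the total in place of a Clopper-Pearson limit. None of 373 neutrophils of the standard sham library was positive, which allows a share of up to 0.804%, and none of 40 in the ActD sham library, which allows up to 7.50%. The share was 1.05% at 3 dpi (17 of 1621 cells, 0.612 to 1.67%) and, in the 14 dpi library, 0.110% (1 of 913 cells). The median depth of neutrophils was 6574, 15966, 2317 and 3842 UMIs in the 4 libraries in the order above. Summed member levels in neutrophils were also higher at 3 dpi. Levels are given as CPM, the UMIs of a gene in each 1000000 UMIs of the class. The S genes together stood at 279.5 CPM at 3 dpi and the G2/M genes at 322 CPM, against at most 84.1 and 92.8 CPM in the other libraries. At 3 dpi, shares near this one cannot be told apart from background.

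**Figure D2:**
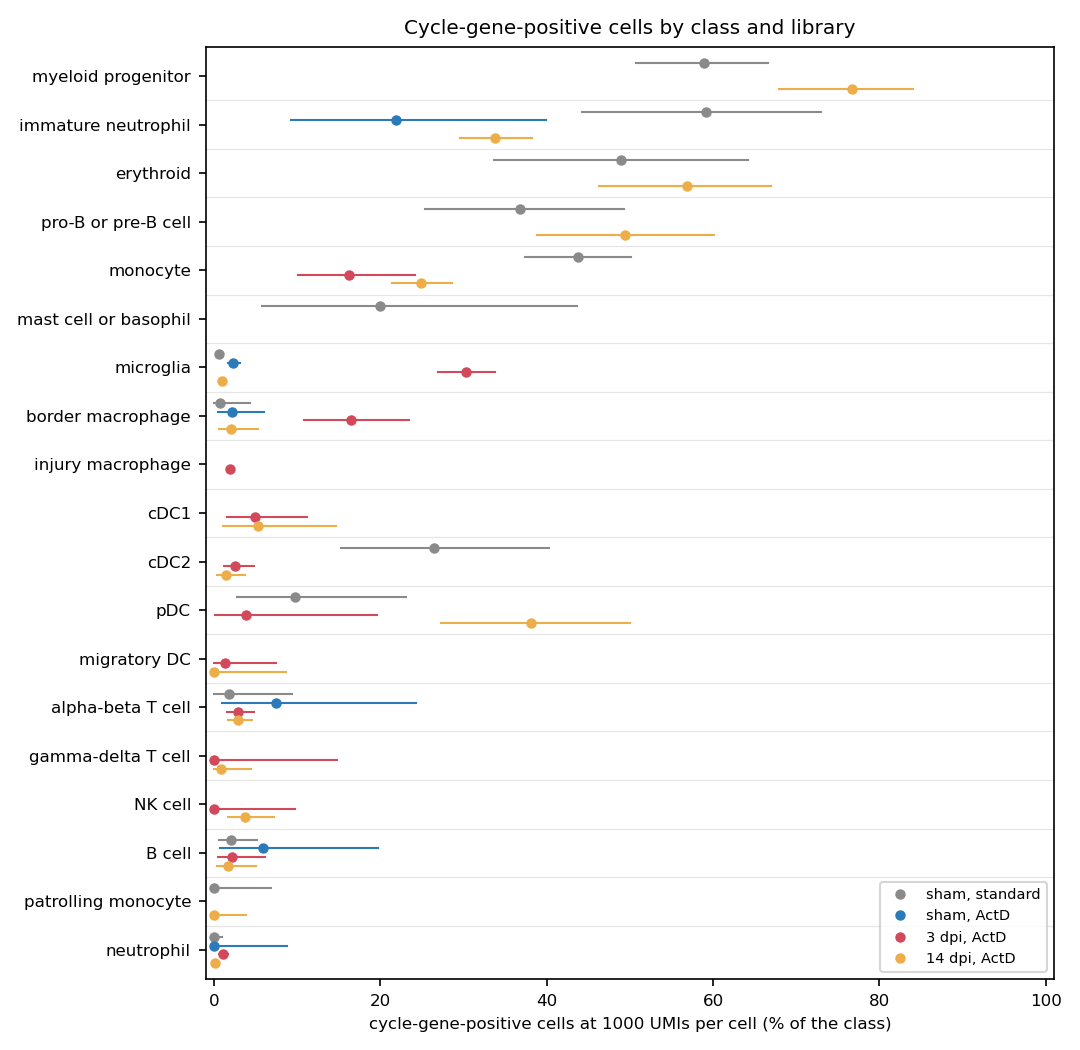
Share of cycle-gene-positive cells at 1000 UMIs per cell (x axis, percent of the class) for each class (y axis) and library (colours), with 95% Clopper-Pearson intervals as lines. Myeloid progenitors (58.9 and 76.7%) and erythroid cells (48.9 and 56.8%) lie high in both libraries in which they were named, and microglia and border macrophages reach 30.3% and 16.4% at 3 dpi only.

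Microglia stood apart at 3 dpi. Positive cells made up 0.580% of microglia in the standard sham library (17 of 2932 cells), 2.33% in the ActD sham library (39 of 1673 cells), 30.3% at 3 dpi (214 of 707 cells, 26.9 to 33.8%) and, in the 14 dpi library, 0.923% (40 of 4332 cells). The interval at 3 dpi does not overlap those of the other libraries. Unthinned shares were 12.6%, 26.5%, 87.1% and 26.9%, and the median depth was 22093 UMIs at 3 dpi against 7357.5 to 10806 UMIs in the others. The value at 3 dpi was 25.8% with another random start of the clustering and 50.9% after Seurat integration. At 3 dpi, 152 of the positive microglia were positive for G2/M genes only, 36 for S genes only and 26 for both, so that 71.0% (64.5 to 77.0%) fell in the G2/M-only group.

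The positive microglia at 3 dpi held markers of their class at close to the level of the negative ones. In the 214 positive microglia at 3 dpi, the 12 microglia markers summed to 6940 CPM, against 7279 CPM in the 493 negative cells. No microglia marker was at 0. The 8 border macrophage markers summed to 901 and 1110 CPM and the 10 injury macrophage markers to 4352 and 5525 CPM. A further 3 dpi cluster of 142 cells, led by Spp1, Hmox1, Chst1, Msr1, Syngr1 and Lpl and with a median of 2946 UMIs, was left unnamed. It held 54 positive cells (38.0%, 30.0 to 46.5%). Fcrls, a microglia marker, was among its 10 leading genes, and Ube2c, Birc5, Pclaf and Top2a were among those that set it apart within its library. Its G2/M genes summed to 2449.9 CPM.

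In the ActD sham and 14 dpi libraries most positive microglia lay in 1 small cluster each. In the ActD sham library, 29 of 39 positive cells lay in 1 cluster of 33 cells led by Crybb1, Tmem119 and Nav3, which held 1.96% of the microglia and 93.2% of their G2/M UMIs. G2/M genes summed to 9541 CPM there and to 31.8 CPM in the other 1640 microglia. Within its library, Cdkn2a, H1fx, Mybl1, Pimreg and Pbk were among the genes that set this cluster apart, and Pbk is a listed mitosis gene. Unlisted genes that move with the members could gather positive cells in a cluster. Their part in this concentration was not tested. At 14 dpi, 22 of 40 positive cells lay in a cluster of 71 cells led by Lpl, Olfml3 and Cst7, genes known from activated microglia and from the class itself, with 3767 CPM against 77.1 CPM of G2/M genes elsewhere. At 3 dpi microglia fell into only 2 clusters, with 35.1% and 23.8% of positive cells. There were 29 clusters of microglia in the ActD sham and 17 in the 14 dpi library. A small cluster with most positive cells could therefore hardly show at 3 dpi, and the unnamed cluster of 142 cells was not counted. In the standard sham library positive microglia were spread more widely, with 6 of 17 in a cluster of 179 cells. Its 3.35% was the highest share among 24 clusters. The share of the ActD sham library depended on the clustering, as it was 0.604% at a lower cluster resolution. The markers of erythroid cells summed to 859 CPM in the positive microglia of this library and 10.9 CPM in the negative ones, with 1 of 7 of these markers at 0. Their part in the share was not tested.

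Among S genes in microglia, Pclaf was the highest at 3 dpi. Its level was 6.19 CPM (standard sham), 16.8 CPM (ActD sham), 159 CPM (3 dpi) and 6.98 CPM (14 dpi). Mcm5 stood at 7.23, 13.1, 62.5 and 6.62 CPM in the same order, and Tyms at 6.57, 16.8, 75.4 and 8.83 CPM. The library at 3 dpi was the highest for all 3. Rrm2, the regulated subunit of ribonucleotide reductase, stood at 2.27, 8.78, 45.4 and 2.12 CPM. Pcna differed less, with 26.8, 47.1, 82.2 and 29.1 CPM.

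Among G2/M genes, Mki67 was the highest at 3 dpi. It stood at 14.9 CPM (standard sham), 51.1 CPM (ActD sham), 358 CPM (3 dpi) and 17.8 CPM (14 dpi). Top2a stood at 12.2, 65.8, 256 and 19.2 CPM, and Birc5 (survivin, of the chromosomal passenger complex) at 6.52, 23.1, 206 and 8.07 CPM. The order of the libraries was the same for these 3 genes, with 3 dpi first and the ActD sham library next. Cdk1 stood at 4.35, 16.9, 80.3 and 12.8 CPM, and Ccnb1 at 2.08, 7.32, 52.8 and 2.47 CPM. Cdc20, the activator of the anaphase-promoting complex, stood at 4.02, 10.9, 37.5 and 3.02 CPM, and Ube2c, its ubiquitin-conjugating enzyme, at 8.98, 23.3, 115 and 12.2 CPM. The 95% Poisson intervals of each of these 7 genes at 3 dpi lie above those of the other libraries. As a 3' count does not grow with gene length in a simple way, levels are compared between libraries here and ranked between genes only as UMIs.

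**Figure D3:**
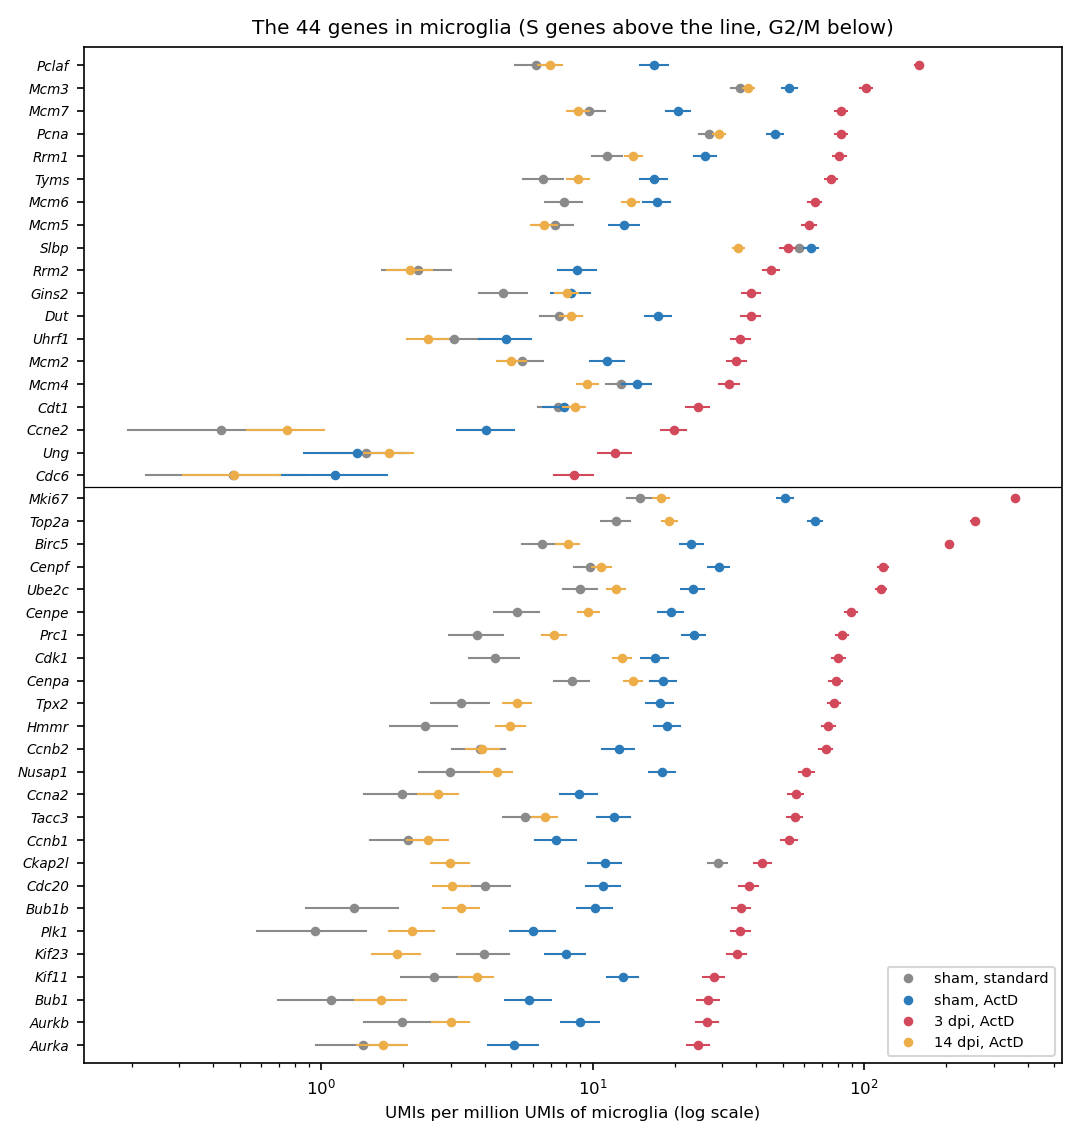
CPM in microglia (x axis, log scale) for each of the 44 genes (y axis, S genes above the line and G2/M genes below it, each sorted by the 3 dpi level) in the 4 libraries (colours), with 95% Poisson intervals. At 3 dpi 43 genes lie above their other libraries, and Slbp does not.

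Between 3 dpi and the ActD sham library, 16 of 19 S genes and 25 of 25 G2/M genes were at least 2-fold higher in microglia at 3 dpi, beside 13.1% of the 12397 genes with at least 20 UMIs over both libraries. The median log2 ratio was 1.997 for S genes and 2.14 for G2/M genes, whereas the median of all genes was -0.55. The largest S ratios were those of Pclaf (3.24, 3.07 to 3.42), Ung (3.13), which removes uracil from DNA, and Cdc6 (2.88). The smallest were those of Slbp (-0.28, -0.41 to -0.15), Pcna (0.80) and Mcm3 (0.94). The largest G2/M ratios were those of Birc5 (3.16), Ccnb1 (2.85) and Mki67 (2.81, 2.71 to 2.91), and the smallest was that of Kif11, a spindle motor (1.11, 0.88 to 1.35). Without the ActD sham cluster of 33 cells, a choice made after seeing the data, the medians were 2.49 and 6.32. That cluster was picked for its positive cells and left out on the sham side only, so the change had a fixed direction. It shows how much of the sham G2/M level these 33 cells held, and gives no second estimate of the ratio.

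At 14 dpi both groups summed to less than at 3 dpi, and their place against sham depended on the sham library. G2/M genes summed to 166 CPM, above the 142 CPM of the standard sham library and below the 444 CPM of the ActD sham library. S genes summed to 207 CPM, against 213 and 354 CPM. Against 3 dpi, 18 of 19 S genes and 25 of 25 G2/M genes were at least 2-fold lower, beside 14.7% of all genes, with medians of -2.75 and -3.79 and a median of all genes of 0.01. Against the ActD sham library, 7 S genes and 21 G2/M genes were at least 2-fold lower at 14 dpi, beside 22.3% of all genes, with medians of -0.93 and -1.64 and a median of all genes of -0.58. With TMM scaling factors 2 S and 13 G2/M genes were. The ActD sham cluster of 33 cells held 93.2% of the G2/M UMIs on the sham side of this second difference. It was picked for its positive cells, so leaving it out had a fixed direction and gives no second estimate. With that cluster left out on the sham side only, no member was 2-fold lower, and the G2/M median was 2.35 in the other direction. The positive cells at 14 dpi stayed in, so the 2 sides of that ratio are not alike. The 2 sham libraries differed in the same way. In the standard sham library, 10 S genes and 23 G2/M genes were at least 2-fold lower than in the ActD sham library, beside 24.7% of all genes, with medians of -1.04 and -1.88. With TMM factors 2 S genes were. Without the cluster, left out on the ActD side only, 1 and 0 genes were, and the G2/M median was 1.91, a change with the same fixed direction. The exception with the cluster, where 6.53% of all genes were at least 2-fold higher in the standard sham library, was Ckap2l, a spindle protein, which stood at 28.8 CPM in the standard and 11.1 CPM in the ActD sham library (log2 ratio 1.38, 1.15 to 1.62). Among microglia not called by the other G2/M genes, Ckap2l had a UMI in 77 of 2924 (standard sham) and 0 of 1645 (ActD sham). It was the G2/M gene with the most UMIs in standard sham microglia and is counted in their 142 CPM. The shares of all genes are those without TMM factors and with the cluster, and were not recomputed for these alternatives. Comparisons with a common library share its sampling error.

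Other cell cycle genes were counted from lists that had not chosen the members, but that were also set with earlier results of these data known. In microglia at 3 dpi, 18 of 23 further replication genes and 31 of 32 further mitosis genes were at least 2-fold above the ActD sham library, beside 13.1% of all genes, with medians of 1.81 and 1.997. The largest were Chaf1b (2.92), a histone chaperone subunit, and Cdc25c (3.345), the phosphatase that activates Cdk1. Of 9 E2F and G2/M transcription factors, 6 were 2-fold higher, led by E2f1 (2.87, 2.53 to 3.23) and Mybl2 (2.495). Replication-dependent histones were higher for 8 of 12 genes, and chromatin and tubulin genes for 8 of 13. G1 cyclins and kinases did not share this pattern, as 1 of the 9 measured was higher (Ccne1, 2.02), a share near that of all genes. Another was lower (Myc, -1.71), beside 33.7% of all genes.

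Inhibitors of cyclin-dependent kinases hold the proliferative cycle back. Cdkn1a (p21) stood at 324 CPM (standard sham), 25.7 CPM (ActD sham), 112 CPM (3 dpi) and 47.9 CPM (14 dpi). It was therefore higher at 3 dpi than in the ActD sham library (log2 ratio 2.12, 1.98 to 2.28) and highest in the library without ActD. Cdkn1c (p57) stood at 15.9, 17.1, 0.746 and 4.65 CPM, which is a log2 ratio of -4.46 (-5.44 to -3.72) at 3 dpi over the ActD sham library. Of the 11 inhibitors and pocket proteins measured in this pair, 3 were at least 2-fold higher, beside 13.1% of all genes, and 4 lower, beside 33.7%. The count of lower genes is thus near the share of all genes.

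Border macrophages, which carry Cd163 and Lyve1 and reside in meninges and along vessels, were the other resident class with positive cells at 3 dpi. The share was 0.781% in the standard sham library (1 of 128 cells), 2.11% in the ActD sham library (3 of 142 cells), 16.4% at 3 dpi (24 of 146 cells, 10.8 to 23.5%) and, in the 14 dpi library, 2.09% (4 of 191 cells). Unthinned shares were 21.1%, 37.3%, 65.8% and 24.0%. The share at 3 dpi is smaller than in microglia, with intervals that do not overlap. It was 4.40% when cell cycle genes were kept in the clustering and 13.5% with another random start. Of the 24 positive cells, 15 were positive for G2/M genes only, 6 for S genes only and 3 for both. Their border macrophage markers summed to 4569 CPM against 10050 CPM in the negative cells, with no marker at 0, and their microglia markers to 1613 and 1136 CPM. The part of these other markers was not tested.

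Mki67 in border macrophages stood at 40.7 CPM (standard sham), 12.2 CPM (ActD sham), 265 CPM (3 dpi) and 25.4 CPM (14 dpi). Top2a stood at 22.0, 18.4, 199.5 and 21.4 CPM. For both genes 3 dpi was the highest library. Pcna, at 26.4, 47.1, 61.3 and 26.0 CPM, and Rrm2, at 6.61, 3.67, 26.7 and 2.89 CPM, were also highest at 3 dpi. Between 3 dpi and the ActD sham library, 9 of 19 S genes and 25 of 25 G2/M genes were at least 2-fold higher, beside 11.1% of 9592 genes. The medians were 0.96 and 4.25, and the median of all genes was -0.19. In the ActD sham library 5 G2/M genes (Ccnb1, Ccnb2, Bub1, Ube2c and Hmmr) had no UMI. At their lower bounds from 3 counts, the median of the G2/M genes was 4.003, and Ube2c was at least 59.9-fold higher at 3 dpi. The S genes with the largest ratios were Pclaf (3.15), Rrm2 (2.76) and Tyms (2.33), and Slbp had the smallest (-0.50). At 14 dpi over 3 dpi, 14 of 18 S genes and 25 of 25 G2/M genes were at least 2-fold lower, beside 8.43% of all genes, with medians of -1.73 and -2.87.

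**Figure D4:**
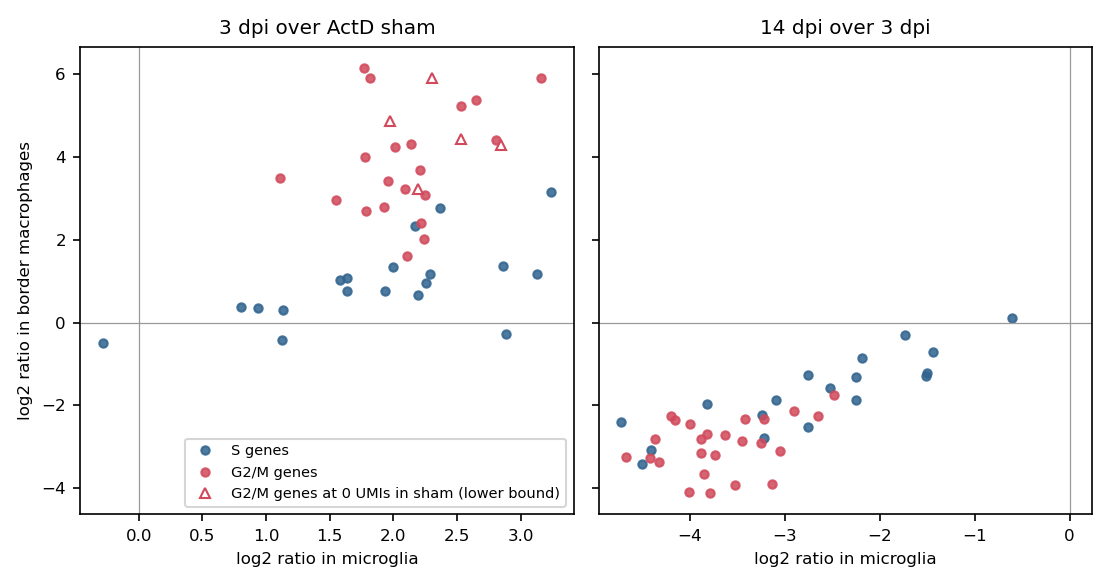
Log2 ratios of the 44 genes in microglia (x axis) and border macrophages (y axis) for 3 dpi over ActD sham (left) and 14 dpi over 3 dpi (right), with S genes in blue, G2/M genes in red and lower bounds as open triangles. On the left G2/M genes reach higher ratios in border macrophages (median 4.25, or 4.003 at the bounds) than in microglia (median 2.14). The microglia median is 6.32 when the ActD sham cluster of 33 microglia is left out. That cluster was picked for its positive cells and left out on the sham side only, so this value does not rank the classes. On the right nearly all genes are below 0 in both classes.

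Injury macrophages, which are marked by Arg1, Fn1 and Thbs1 and were named at 3 dpi only, were mostly negative. The share was 1.92% (72 of 3743 cells, 1.51 to 2.42%) against 54.9% without thinning, at a median depth of 14744 UMIs. It thus lies near the 1.05% of neutrophils, whose interval reaches 1.67%. Positive cells were uneven among the 20 clusters of the class. A cluster of 174 cells led by Arg1, Spp1 and Clec4n held 30 of them (17.2%, 11.9 to 23.7%), whereas the other clusters held 1.18% together and 7 held none. Pclaf, Asf1b and Lig1 were among the genes that set this cluster apart within its library. Mki67 stood at 35.5 CPM, Top2a at 35.2 CPM, Pcna at 36.7 CPM and Rrm2 at 6.07 CPM over the class, close to the 45.6, 31.1, 42.9 and 8.14 CPM of neutrophils in the same library. The share of the class moved between 1.07% (at least 4 genes required) and 4.87% (cells with Itgam and a lymphoid marker kept). In 2 settings added after seeing the data, it was 4.45% with another random start of the clustering. It was 3.87% (153 of 3951 cells, 3.29 to 4.52%) when genes that move with the members were left out of the clustering.

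Myeloid progenitors, with Mpo, Elane, Prtn3 and Ctsg, had the highest share of any named class at 14 dpi, and one close to that of immature neutrophils in the standard sham library. It was 58.9% in the standard sham library (93 of 158 cells, 50.8 to 66.6%) and, in the 14 dpi library, 76.7% (89 of 116 cells, 68.0 to 84.1%), without overlap of the intervals. These libraries also differ in dissociation and software version. Unthinned shares were 98.1% and 99.1%, and median depths were 38493 and 33882 UMIs. S-only and G2/M-only cells were similar in number, and cells positive for both were fewer. At 14 dpi, 39 were S only, 39 G2/M only and 11 both, and in the standard sham library 39, 31 and 23. Mki67 stood at 220 CPM in the standard sham library and 421 CPM at 14 dpi, Top2a at 298 and 542 CPM, Pcna at 100.7 and 103 CPM, and Rrm2 at 223 and 129 CPM. Of the members, 0 S genes and 1 G2/M gene (Bub1b, log2 ratio 1.12) were at least 2-fold higher at 14 dpi, beside 5.91% of all genes. In the ActD sham library a cluster of 47 cells led by C1galt1c1, Nrg1, Ly6c2 and Prtn3 stayed unnamed between monocytes and progenitors, and 33 of its cells were positive (70.2%). A cluster of 54 cells in the standard sham library, led by Myct1, Nkx2-3 and Angpt1, genes known from early blood progenitors, held 18 positive cells (33.3%).

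Immature neutrophils, with Camp, Ngp, Ltf and Fcnb, were positive in 59.2% of 49 cells in the standard sham library (44.2 to 73.0%), 21.9% of 32 cells in the ActD sham library (9.28 to 39.97%) and 33.8% of 477 cells at 14 dpi (29.5 to 38.2%). Unthinned shares were 85.7%, 43.8% and 45.3%. They were not named at 3 dpi. The sham values depended on the clustering, with 17.4% in the standard sham library at a lower resolution and 0% in the ActD sham library after integration. At 14 dpi, 153 of the 161 positive cells lay in 1 cluster of 181 cells, of which 84.5% were positive, and 2.70% of the other 296 cells were. G2/M genes summed to 5786 CPM in that cluster and 281 CPM in the others. G2/M-only cells prevailed, with 102 of 161 at 14 dpi, 19 of 29 in the standard sham library and 7 of 7 in the ActD sham library.

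Among members in immature neutrophils, S genes differed more between libraries than G2/M genes. They summed to 1580 CPM (1508 to 1654) in the standard sham library, 715 CPM (663 to 771) in the ActD sham library and 1186 CPM (1162 to 1210) at 14 dpi, whereas G2/M genes summed to 3537, 3261 and 3301 CPM. Mki67 stood at 551 CPM (standard sham), 359.75 CPM (ActD sham) and 524 CPM (14 dpi). Top2a stood at 402, 533 and 489 CPM, Pcna at 81.4, 26.9 and 52.6 CPM, and Rrm2 at 221, 74.4 and 127 CPM. At 14 dpi over the standard sham library no member was 2-fold lower or higher, beside 7.32% and 7.58% of all genes, and the log2 ratio of Mki67 was -0.07 (-0.19 to 0.05). The count of lower S genes was 3 without doublet removal and 4 when genes that move with the members were left out of the clustering. Pclaf, Rrm2 and Slbp were the S genes with the most UMIs in each of the 3 libraries. The ActD sham library held fewer S transcripts. There 14 of 17 S genes but 0 of 25 G2/M genes were at least 2-fold lower than in the standard sham library (higher in the latter, as were 12.4% of all genes), with median log2 ratios of 1.38 and 0.12 for the standard over the ActD sham library. At 14 dpi, S genes summed to 1186 CPM in immature and 84.1 CPM in mature neutrophils, and G2/M genes to 3301 and 92.8 CPM.

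Monocytes, with Ly6c2, Ccr2 and Chil3, were positive in 43.7% of 247 cells in the standard sham library (37.4 to 50.2%), 16.2% of 117 at 3 dpi (10.1 to 24.2%) and, at 14 dpi, 24.9% of 571 (21.4 to 28.6%). Unthinned shares were 59.5%, 35.9% and 38.0%. Positive cells lay in 1 cluster at both ends. In the standard sham library, 102 of 108 were in a cluster of 113 cells led by Nrg1, F13a1 and AI839979, and at 14 dpi 127 of 142 were in a cluster of 133 cells led by C1galt1c1, AI839979 and F13a1. The other monocytes were positive in 4.48% and 3.42%. The share of the class depended on whether such a cluster was named monocyte. At 14 dpi it was 2.64% at a lower resolution, 2.30% after integration and 0.974% with cell cycle genes kept, and at 3 dpi it was 1.08% with these genes kept. The positive monocytes at 14 dpi held 1511 CPM of myeloid progenitor markers against 216 CPM in the negative ones, and 7709 against 16330 CPM of monocyte markers, with 1 of the 8 progenitor markers and no monocyte marker at 0. The part of the progenitor markers in the share was not tested.

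Mki67 in monocytes stood at 448 CPM (standard sham), 199 CPM (3 dpi) and 501 CPM (14 dpi). Top2a stood at 446, 181 and 447 CPM, Pcna at 92.9, 59.3 and 75.0 CPM, and Rrm2 at 172, 40.6 and 72.0 CPM. The 3 dpi library was the lowest for each of these genes, which is the reverse of microglia for the class as named. At 14 dpi G2/M genes summed to 7314 CPM in the cluster of 133 cells and to 288 CPM in the other monocytes. Monocytes at 3 dpi stood at 1411 CPM. The cluster of 133 cells held most positive cells and was set aside at 14 dpi only, so the lower value had a fixed direction. It shows how much of the 14 dpi G2/M level that cluster held, and gives no second estimate of the difference. At 14 dpi over 3 dpi, 2 of 19 S genes (Pclaf, 1.60, and Slbp, 1.06) and 15 of 25 G2/M genes were at least 2-fold higher, beside 10.7% of all genes. The medians were 0.41 and 1.12, and the median of all genes was 0.16. The largest G2/M ratio was that of Kif11 (1.95, 1.39 to 2.63) and the smallest that of Ccnb1 (-0.00, -0.46 to 0.51).

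Erythroid cells, with Klf1 and haemoglobin genes, were positive in 48.9% of 45 cells in the standard sham library (33.7 to 64.2%) and 56.8% of 95 cells at 14 dpi (46.3 to 67.0%), with overlapping intervals and unthinned shares of 95.6% and 82.1%. At 14 dpi, 31 of 54 positive cells were positive for both groups. Dut, which keeps uracil out of DNA, was the S gene with the most UMIs in both libraries, at 593 and 614 CPM. Mki67 stood at 405 and 867 CPM and Top2a at 329.96 and 681 CPM, and 5 of 19 S genes and 8 of 25 G2/M genes were at least 2-fold higher at 14 dpi, beside 13.1% of all genes. Mast cells or basophils, named in the standard sham library only, were positive in 4 of 20 cells (5.73 to 43.7%).

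B-lineage classes differed in their shares, as named. Pro-B or pre-B cells, with Vpreb1, Igll1, Dntt and Rag1, were positive in 36.8% of 68 cells in the standard sham library (25.4 to 49.3%) and 49.5% of 91 cells at 14 dpi (38.8 to 60.1%). Unthinned shares were 60.9% and 62.6%. Mature B cells were positive in 2.07% of 193, 5.88% of 34, 2.16% of 139 and 1.74% of 172 cells, in the order of standard sham, ActD sham, then 3 and 14 dpi, with intervals that reach at least 5.01%. The highest levels of the series lay in 2 unnamed clusters led by Myl4, Gm30211, Cecr2 and Pou2af1, a coactivator of B cells. In the cluster of the standard sham library 137 of 138 cells were positive (99.3%), and in that of 14 dpi 115 of 115 were, with 95 and 87 positive for S genes. G2/M genes summed to 10892 and 12607 CPM there and S genes to 5736 and 6373 CPM. At 14 dpi, 78 of the 115 cells were positive for both groups (67.8%, 58.5 to 76.2%). These leading genes did not go with positive cells everywhere. A further unnamed cluster of the standard sham library also had Gm30211, Cecr2, Myl4 and Pou2af1 among its leading genes. Only 2 of its 216 cells were positive (0.926%). In unnamed clusters led by Iglc1 and Iglc2, 0 of 112 cells (standard sham) and 1 of 109 cells (14 dpi) were positive.

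The 2 clusters with the highest levels (the Myl4 clusters) are counted with no class, which bears on the pro-B and pre-B shares. When cell cycle genes were kept in the clustering these shares were 6.98% and 19.6%, and after integration 78.9% and 76.5%. In pro-B or pre-B cells, Mki67 stood at 491 CPM in the standard sham library and 957 CPM at 14 dpi, Top2a at 606 and 1015 CPM, Pcna at 174 and 197 CPM, and Rrm2 at 184 and 246 CPM. In the Myl4 clusters Mki67 stood at 1425 and 1939.9 CPM, Top2a at 1594 and 2171 CPM, Pcna at 286 and 292 CPM, and Rrm2 at 472 and 480.43 CPM. At 14 dpi, 2 S genes and 2 G2/M genes of the pro-B or pre-B cells were at least 2-fold above the standard sham library, beside 5.82% of all genes. The ActD sham library held no named pro-B or pre-B class. A cluster of 38 cells led by Iglc2, Iglc1 and Gm30211, with Rag1 and Rag2 among the genes that set it apart, held 7 positive cells (18.4%).

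Dendritic cells differed by type. Type 2 conventional dendritic cells (cDC2) were named with Cd209a and Clec10a among the markers. They were positive in 26.4% of 53 cells in the standard sham library (15.3 to 40.3%). At 3 dpi 2.54% of 354 were positive (1.17 to 4.77%), and at 14 dpi 1.48% of 271 (0.404 to 3.74%). Unthinned shares were 50.9%, 32.2% and 28.8%. All 9 positive cells at 3 dpi lay in a cluster of 253 cells (3.56%) led by Dcstamp, Ifitm1 and Cfp. Neither Cd209a nor Clec10a was among its leading genes. The other 3 dpi cluster of the class, led by Cd209a and Cd209d, held no positive cell. Mki67 in cDC2 stood at 254, 31.7 and 21.1 CPM, Top2a at 271, 34.9 and 21.5 CPM, Pcna at 46.0, 33.9 and 23.7 CPM, and Rrm2 at 41.9, 2.91 and 1.11 CPM. At 14 dpi over the standard sham library, 12 of 17 S genes and 25 of 25 G2/M genes were at least 2-fold lower, beside 9.37% of all genes, with medians of -1.48 and -3.71. The share in the standard sham library was 11.4% with cell cycle genes kept in the clustering.

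Type 1 conventional dendritic cells (cDC1), with Xcr1 and Clec9a, were positive in 5 cells at 3 dpi (4.95%, 1.63 to 11.2%) and, in the 14 dpi library, in 3 of 57 cells (5.26%, 1.10 to 14.6%), and unthinned in 38.6% and 43.9%. Migratory dendritic cells were positive in 1 of 73 and 0 of 41 cells, and the latter allows a share of up to 7.32%. Plasmacytoid dendritic cells (pDC), the source of type I interferon, were positive in 9.76% of 41 cells in the standard sham library (2.72 to 23.1%), 3.85% of 26 at 3 dpi (0.0973 to 19.6%) and, at 14 dpi, 38.2% of 76 (27.2 to 50.02%). Unthinned shares were 31.7%, 19.2% and 64.5%. The value at 14 dpi depended on which cells joined the cluster. It was 5.38% with cell cycle genes kept and 0% with another random start. Mki67 of the cells named pDC stood at 146, 52.4 and 566 CPM, and 16 of 18 S genes and 24 of 25 G2/M genes were at least 2-fold higher at 14 dpi than at 3 dpi, beside 17.6% of all genes. At 3 dpi 12 G2/M genes had no UMI in the 26 cells, and at their bounds the median G2/M ratio was 2.85 in place of 4.28.

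T and natural killer (NK) cells had low shares in the injured cord. Alpha-beta T cells were positive in 1.75% of 57 cells in the standard sham library, 7.41% of 27 cells in the ActD sham library (0.910 to 24.3%), 2.87% of 487 at 3 dpi (1.58 to 4.78%) and, at 14 dpi, 2.92% of 616 (1.74 to 4.58%). Unthinned shares were 29.8%, 40.7%, 23.8% and 31.7%. The shares of the injured cord lie above the 1.05% and 0.110% of neutrophils, and at 3 dpi the intervals overlap. The balance of S and G2/M calls differed from microglia. At 14 dpi 13 of 18 positive T cells were positive for S genes only (72.2%, 46.5 to 90.3%), and 7 of 8 positive NK cells (of 213 cells, 3.76%) were. Over the class, S genes summed to 625 CPM in these T cells and 559 CPM in NK cells, against 84.1 CPM in neutrophils of that library. The neutrophil share is therefore not a matched background for S-only calls. Whether these cells were cycling was not tested. No NK cell was positive at 3 dpi among 36, which allows a share of up to 8.33%. Of gamma-delta T cells, 0 of 23 were positive at 3 dpi and 1 of 122 at 14 dpi.

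Mki67 in alpha-beta T cells stood at 43.5 CPM (standard sham), 546 CPM (ActD sham), 62.3 CPM (3 dpi) and 43.8 CPM (14 dpi). Top2a stood at 54.3, 657, 64.4 and 49.8 CPM, Pcna at 23.9, 61.1, 49.8 and 36.7 CPM, and Rrm2 at 8.69, 198, 8.38 and 7.16 CPM. The ActD sham values rest on 2 positive cells with a median of 39375 UMIs among 27 cells, and the share was 0% with cell cycle genes kept. Between 14 and 3 dpi, 2 of 17 S genes (Dut, 1.41, and Mcm4, 1.05) were at least 2-fold higher and 4 of 19 G2/M genes at least 2-fold lower, beside 6.39% and 6.35% of all genes. The medians were 0.48 and -0.51. Without doublet removal the G2/M median was 1.04 and no G2/M gene was 2-fold lower, so its direction depends on that step.

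**Figure D5:**
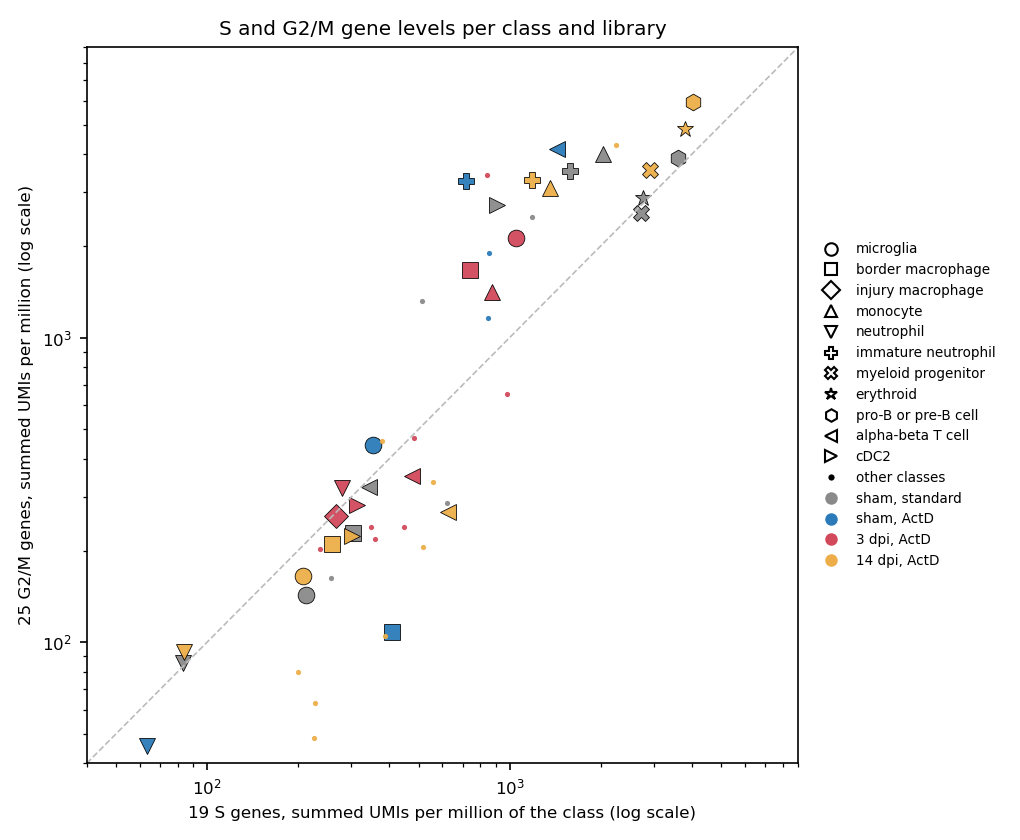
Summed CPM of the 25 G2/M genes (y axis, log scale) against those of the 19 S genes (x axis, log scale) for each class (symbols) and library (colours), with a dashed line where both are equal. Microglia and border macrophages move from the lower left (444 and 108 CPM of G2/M genes in the ActD sham library) to the centre at 3 dpi (2122 and 1669.9), and progenitor and pro-B or pre-B classes lie at the upper right.

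Summed levels per class place these shares on 1 scale. In microglia, S genes summed to 213 CPM (standard sham), 354 CPM (ActD sham), 1049.5 CPM (3 dpi) and 207 CPM (14 dpi), and G2/M genes to 142, 444, 2122 and 166 CPM. In border macrophages, S genes summed to 304, 407, 738 and 259 CPM and G2/M genes to 229, 108, 1669.9 and 211 CPM. Myeloid progenitors reached 2722 CPM of S genes and 2569 CPM of G2/M genes in the standard sham library, and 2913 and 3551 CPM at 14 dpi. In microglia and border macrophages at 3 dpi the G2/M sum exceeded the S sum, whereas in alpha-beta T cells at 14 dpi the S sum was the larger, at 625 against 267 CPM. In a sum over a class, more positive cells and more RNA of these genes per positive cell cannot be told apart.

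Cells outside the leukocyte classes also carried members. At 3 dpi, fibroblasts were positive in 5 of 23 cells (21.7%, 7.46 to 43.7%), all 5 for G2/M genes. The positive fibroblasts had a median of 79897 UMIs, against 15624 in the negative ones. An unnamed cluster of 36 cells was led by Fabp7, Crym, Ptprz1, Nnat, Sox2 and Olig1, genes known from glia. It held 10 positive cells (27.8%, 14.2 to 45.2%). With genes that move with the members left out of the clustering, 36 cells at 3 dpi, 10 of them positive, were named astrocyte. In the ActD sham library 2 of 21 pericytes were positive, with a median of 82132 UMIs against 6979 in the negative ones. Whether these deep fibroblast and pericyte barcodes held more than 1 cell was not tested. Endothelial cells at 14 dpi were positive in 0 of 31 cells, which allows a share of up to 9.68%. The barcodes that the filters removed also held positive cells. Among removed doublets, 12.03% of 291, 2.38% of 42, 7.24% of 774 and 17.4% of 931 were positive, in the order of standard sham, ActD sham, then 3 and 14 dpi.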

How the data were processed

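CD45+ spinal cord cells were profiled in 4 libraries. Per the file headers and the submitters' processing notes, the authors made the deposited matrices of UMI counts with Cell Ranger (version 3.0.1 in the standard sham and 3 dpi samples and version 3.1.0 in the other two) on mm10; values were raw counts of 31053 genes. The members and gene lists were chosen with earlier results of these data known. Barcodes with under 600 genes or over 10% mitochondrial UMIs were removed, as were cells with Itgam and a lymphoid marker, and those with the highest Scrublet doublet scores at 0.8% per 1000 barcodes. That left 5035, 2135, 8214 and 9078 cells with 47840648, 25739742, 95616144 and 95757564 UMIs (standard sham, ActD sham, then 3 and 14 dpi). Depth limits each share through the 1000 UMIs kept per cell.

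Each library was clustered alone (scanpy 1.11.5; 2000 variable genes without cell cycle and histone genes, 50 components, 20 neighbours, Leiden resolution 4, in Python 3.11.15). Naming limits and the resolution were set after clusters of resolutions from 1.5 upward had been seen, because at lower values mature and immature neutrophils, and microglia and pericytes, shared clusters. A name required at least 3 detected markers. Shares have exact Clopper-Pearson (shares of 0 a limit of 3 cells of the total), CPM exact Poisson and ratios exact conditional 95% intervals. Log2 ratios of CPM had 0.5 UMIs added, and lists count genes with at least 20 UMIs over the pair. The steps were tested on simulated data. Alternatives used edgeR 4.0.16 (TMM factors) and Seurat 5.3.0 (integration, resolution 0.6, R 4.3.3). Named were all members in microglia by a fixed subset, Mki67, Top2a, Pcna and Rrm2 in other classes, the members with the most UMIs, and those with the largest and smallest ratios; leading genes of clusters were named after they were seen.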

Additional observations from a re-analysis of the deposited data

Results flagged for a closer look

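Between 3 and 14 dpi the G2/M genes moved in opposite directions in different classes, as these were named. Their median log2 ratio of 14 dpi over 3 dpi was -3.79 in microglia and -2.87 in border macrophages, whereas it was 1.12 in monocytes. With 1 library per time point the difference between the classes was not tested. The monocyte value depends on a cluster of 133 cells at 14 dpi that other clusterings did not name monocyte. Outside that cluster, G2/M genes summed to 288 CPM in monocytes at 14 dpi, below the 1411 CPM of monocytes at 3 dpi. That cluster held most positive monocytes and was set aside at 14 dpi only, so this lower value had a fixed direction.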

How the results depend on the processing

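No paired analysis was possible because each condition had 1 library. Of the recomputed shares of the classes and libraries listed below, 79 stayed within the counting interval and 46 moved out of it. For the remaining shares, 464 stayed within it and 162 moved out. Of the recomputed counts of 2-fold members, 81 stayed within 1.5 times, 16 moved further and 5 had a median of the other sign. Settings on random starts, on genes that move with the members and on the ActD sham cluster were chosen after seeing the data. Shares are given in the order microglia (standard sham, ActD sham, 3 dpi, 14 dpi), cDC2 (3 dpi), border macrophages (3 dpi), then alpha-beta T cells, immature neutrophils, myeloid progenitors and pro-B or pre-B cells (14 dpi). Without thinning they were 12.6, 26.5, 87.1, 26.9, 32.2, 65.8, 31.7, 45.3, 99.1 and 62.6%. At 2000 UMIs all but the last moved, to 1.39, 4.13, 49.9, 1.65, 4.89, 27.3, 8.42, 39.5 and 94.8%. With at least 4 genes required, microglia were at 0.307% (standard sham) and 20.8% (3 dpi), cDC2 at 0.847%, border macrophages at 10.3%, T cells at 1.62%, immature neutrophils at 27.3% and progenitors at 62.1%. With stricter cell filters microglia were at 24.5% (3 dpi) and 0.296% (14 dpi), immature neutrophils at 42.6% and pro-B or pre-B cells at 38.6%, and with looser filters immature neutrophils were at 38.8% and T cells at 4.75%. Without doublet removal microglia at 14 dpi were at 1.74% and T cells at 5.30%, and with Itgam and lymphoid cells kept T cells were at 5.63% and immature neutrophils at 29.1%. With cell cycle genes kept in the clustering, microglia of the standard sham library were at 0.257%, border macrophages at 4.40% and pro-B or pre-B cells at 19.6%. After Seurat integration microglia were at 0.299% (standard sham) and 50.9% (3 dpi), immature neutrophils at 25.3% and pro-B or pre-B cells at 76.5%. A lower resolution gave 0.604% of ActD sham microglia, another random start 25.8% of 3 dpi microglia, and leaving out genes that move with the members 28.7% of immature neutrophils.

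For the alternative counts that follow, the shares of all genes were not recomputed. In microglia at 14 dpi over the ActD sham library, 2 S and 13 G2/M genes were 2-fold lower with TMM factors and 3 S genes without doublet removal. Without the ActD sham cluster, left out on the sham side only, it was 0 and 0, with the G2/M median at 2.35. Changes from leaving this cluster out had a fixed direction. For the standard over the ActD sham library, 2 S genes were lower with TMM factors, and 1 S and 0 G2/M genes without the cluster (G2/M median 1.91). With at least 200 UMIs required, 3 S and 7 G2/M genes of border macrophages passed at 3 dpi and 2 and 7 at 14 over 3 dpi, since fewer genes were measured. For T cells at 14 over 3 dpi, 1 S gene was higher with TMM factors and 9 without doublet removal, and 0 G2/M genes were lower with at least 200 UMIs, 0 without doublet removal (median 1.04) and 1 when genes that move with the members were left out (median 0.08). For immature neutrophils at 14 dpi over standard sham, 1 S gene was lower over every gene, 3 without doublet removal and 4 with those genes left out, and the G2/M median was 0.00 with TMM factors, with 0 genes lower. Where neither the left-out cluster nor fewer measured genes makes the difference, the cause was not tested. At 1000 UMIs per cell, shares near the neutrophil background cannot be told apart from it.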
